A study of Mus musculus with 40 samples.

Results

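The interleukin 1 family and its receptors were followed as 10 genes: the ligands Il1a, Il1b, Il33 and Il18, the secreted inhibitors Il1rn and Il18bp, the receptor chains Il1r1, Il1rap and Il1rl1, and the decoy receptor Il1r2. They were chosen by name from the family, with earlier results of these data known, and all 10 were found among the 23079 genes of the deposited count table. All 10 passed the filter on low counts in each of the 5 comparisons below. The lowest count of any of them in any library was 2.

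RNA was sequenced from cervix and from the uterine muscle layer, the myometrium, of pregnant C57BL/6 mice, an inbred strain, collected at 18.5 days post coitum. The 4 groups were cervix of mice given human chorionic gonadotropin (hCG), cervix of mice given phosphate-buffered saline (PBS), myometrium of mice given hCG and myometrium of mice given PBS, with 10 libraries each. Both agents were given by intraperitoneal injection, hCG being a hormone of the placenta that signals through the receptor for luteinizing hormone. How much hCG was given, and how long before collection, is not stated in the labels used. No other allele or agent is named, so all groups share the strain, the pregnancy and the day of collection. The tissues were whole pieces and no cell type was isolated. The design text gives 10 mice per treatment, but the labels hold 22 pairs of treatment and number, 18 of them shared by cervix and myometrium. No label calls a number an animal. The p-values below therefore measure the spread between these libraries, which may in part be technical.

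Interleukin 1 alpha and beta bind the receptor Il1r1, which recruits the accessory chain Il1rap and signals through Myd88 to NF-kB. Il1rn encodes a receptor antagonist that binds Il1r1 without signalling, and Il1r2 a receptor that captures ligand but has no signalling domain. Interleukin 1 beta and interleukin 18 are made as precursors that caspase 1 cleaves in inflammasomes, interleukin 1 alpha is active as the precursor, and interleukin 33 is a nuclear alarmin of epithelial and stromal cells that acts through Il1rl1 together with Il1rap. Il18bp encodes a soluble protein that binds interleukin 18. In the pregnant uterus the family is known for its part in inflammation, in cervical remodelling and in labour.

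Several libraries stood apart. Totals ran from 5449239 to 25028360 counts, and in cervix hCG 1 to 6 and PBS 1 to 4 were deeper (above 14000000 counts) than the others, so depth and treatment were unevenly mixed. The 15 squamous epithelium markers summed to between 1796 and 70046 CPM (counts scaled to a common library size) in the cervix libraries and to between 5.61 and 55.2 CPM in myometrium. Among cervix libraries hCG 5 had the lowest squamous sum (1796 CPM), the highest sum of 9 smooth muscle markers (29379 CPM, above the highest PBS cervix library at 13022 CPM and the median hCG myometrium library at 22360 CPM) and the highest sum of 8 urothelial markers (3012 CPM). In hCG 1 skeletal muscle markers summed to 6132 CPM and in hCG 3 adipocyte markers to 3344 CPM, the highest in any cervix library. In PBS cervix libraries 5 to 8 the transcript Lars2 took up to 17.5% of all reads counted. It also passed 1% in 1 hCG myometrium library (5.22% in library 3) and in 2 PBS myometrium libraries (up to 5.63% in library 2). In myometrium, yolk sac and fetal liver markers summed to between 251 and 30941 CPM. Values of the family that rest on these libraries are given with and without them, but no fit left out myometrium libraries for their Lars2.

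On assembly GRCm38.p6 Il1a (chromosome 2, from 129299609 to 129310186) and Il1b (chromosome 2, from 129364569 to 129371164) are protein-coding neighbours on the minus strand. Il1rn lies elsewhere on chromosome 2 (24336860 to 24351491). Il1r2, Il1r1 and Il1rl1 lie in order on chromosome 1 from 40084692 to 40465418, next to Il18r1 and Il18rap, which encode the chains of the interleukin 18 receptor. Il1rap is on chromosome 16 (26581509 to 26730128), Il33 on chromosome 19 (29925113 to 29960718), Il18 on chromosome 9 (50554700 to 50581841) and Il18bp on chromosome 7 (102015074 to 102018232). Each value below is a sum over a whole gene. The labels do not say whether counting used strand, so reads of Il1b and Il1bos, Il1a and Gm14023, Il18 and the overlapping Bco2 and Tex12, Il1r2 and Gm16894, Il1rap and Gm20319, and Il33 and Gm41832 cannot be told apart.

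The 250 bases upstream of the transcript starts of Il1b, Il1a and Il33 are shown because Il1b was the member that rose with hCG, Il1a lies beside it and went the other way between tissues, and Il33 differed most between tissues. They are RefSeq sequences of GRCm38.p6, written 5′ to 3′ on the strand of the gene, and capitals mark matches to the motifs searched. The windows are chr2:129371140-129371389 (minus) for Il1b, chr2:129309973-129310222 (minus) for Il1a, chr19:29924863-29925112 (plus) for the first start of Il33 and chr19:29945540-29945789 (plus) for the second.
Il1b: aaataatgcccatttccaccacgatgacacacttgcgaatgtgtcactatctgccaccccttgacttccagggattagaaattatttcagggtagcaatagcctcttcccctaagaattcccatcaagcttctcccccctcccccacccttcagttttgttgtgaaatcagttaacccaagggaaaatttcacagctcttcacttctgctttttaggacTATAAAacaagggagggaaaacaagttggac
Il1a: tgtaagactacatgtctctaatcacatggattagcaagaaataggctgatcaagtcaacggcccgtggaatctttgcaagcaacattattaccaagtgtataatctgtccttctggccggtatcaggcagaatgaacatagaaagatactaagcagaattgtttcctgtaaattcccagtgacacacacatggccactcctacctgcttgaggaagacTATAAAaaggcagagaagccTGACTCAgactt
Il33 first start: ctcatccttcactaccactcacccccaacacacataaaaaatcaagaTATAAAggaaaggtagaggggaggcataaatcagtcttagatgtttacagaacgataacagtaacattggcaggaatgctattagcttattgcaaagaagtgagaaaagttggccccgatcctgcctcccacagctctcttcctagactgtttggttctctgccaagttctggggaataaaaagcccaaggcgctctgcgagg
Il33 second start: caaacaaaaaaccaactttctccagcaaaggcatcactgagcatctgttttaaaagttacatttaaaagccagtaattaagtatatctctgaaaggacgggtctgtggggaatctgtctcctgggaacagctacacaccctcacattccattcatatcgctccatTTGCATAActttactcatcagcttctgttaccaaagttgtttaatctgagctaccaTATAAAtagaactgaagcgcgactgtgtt

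Searched on both strands were the NF-kB motif, the AP-1 motif TGANTCA, the C/EBP motif TTGCNNAA and the TATA box TATAAA, none of which shared bases in the windows shown. Il1b held a TATA box 31 bases upstream of its start, Il1a a TATA box at 32 bases and an AP-1 match at 12 bases. The second start of Il33 held a TATA box at 29 bases and a C/EBP match at 85 bases, and the first a TATA match at 203 bases. Over the 10 genes, which have 15 windows, 1 gene held an NF-kB match, 2 an AP-1 match, 4 a C/EBP match and 4 a TATA match. By window these were 1, 2, 4 and 5 of 15. Among 32851 windows of all genes the motifs were found in 3.9%, 6.75%, 9.56% and 12.4%. A match describes these letters alone.

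Per kilobase of exon, so that genes can be compared, Il1r2 and Il33 had the highest median levels of the 10 genes in cervix. Il1r2 stood at 82 CPM per kb with hCG and 101 with PBS, and Il33 at 74.7 CPM per kb with hCG and 66.9 with PBS. Il1r1 followed at 15.3 CPM per kb with hCG and 16.8 with PBS. In myometrium Il1a had the highest median level, at 23 CPM per kb with hCG and 19.3 with PBS, ahead of Il1r2 (8.67 with hCG and 10.4 with PBS) and Il1r1 (8.12 with hCG and 8.73 with PBS). Il1b was at 8.62 CPM per kb in hCG cervix, and at 0.895, 1.05 and 0.963 CPM per kb in PBS cervix, hCG myometrium and PBS myometrium. The ligand of highest level thus differed between the tissues, Il33 in cervix and Il1a in myometrium.

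**Figure D1:**
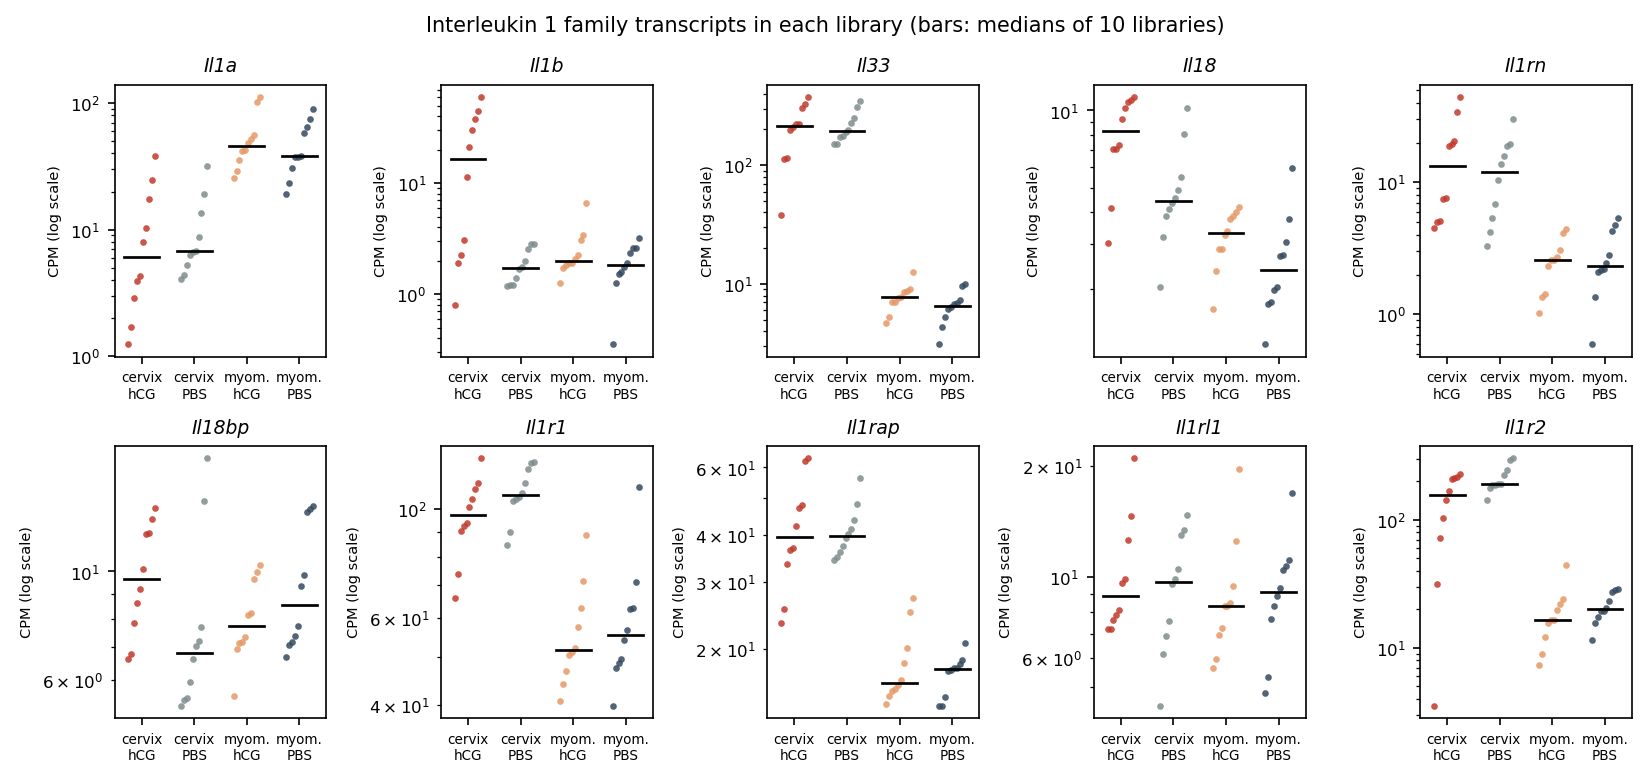
CPM of each of the 10 genes (vertical axis, log scale) in the 10 libraries of each group (points), with the median as a bar. Il33 and Il1r2 stand higher in cervix and Il1a in myometrium, and Il1b spreads from 0.802 to 60.1 CPM in hCG cervix while PBS cervix stays between 1.18 and 2.82 CPM.

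Whether hCG altered the family in cervix was asked first. Il1b, the ligand made by activated myeloid cells, was the member that rose. It stood at 60.1, 44.5, 37.8, 30.2, 21.3 and 11.5 CPM in hCG cervix libraries 6, 4, 1, 2, 3 and 7, and at 3.11, 2.27, 1.92 and 0.802 CPM in hCG 10, 5, 9 and R3. In PBS cervix it ran from 1.18 through a median of 1.71 to 2.82 CPM. The hCG libraries fell into high and low ones: 7 of 10 were above the highest PBS library, 1 was below the lowest, and the groups overlapped. The difference was 11.6-fold (log2 3.53, SE 0.635, 9 of 10 hCG libraries above the PBS median, edgeR quasi-likelihood test, Benjamini-Hochberg adjusted p = 0.0263 over 14932 genes). Of the 10 members 1 rose, 0 fell and 9 were not called, while 4.74% of all genes tested were called higher, 4.17% lower and 8.91% in either direction. Upper-quartile factors called 972 genes higher and 475 lower, against 708 and 623 here. No member had ranges that did not overlap, and 0.0335% of all genes did. The median log2 difference was 0.122 over the members and 0.007012 over all genes.

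The size of the Il1b difference did not rest on the libraries that stood apart, but its call did. Without hCG 1, 3 and 5 it was log2 3.55 (SE 0.626, edgeR adjusted p = 0.0598), and without PBS 5 to 8 log2 3.53 (SE 0.866, edgeR adjusted p = 0.0654). In these fits edgeR called 0 of 14755 and 1 of 15636 genes in all, against 1331 of 14932 with all libraries, so the loss of the call was not particular to Il1b. Leaving out each library in turn gave log2 3.23 to 3.68, and Il1b was called in 17 of 20 such fits, the exceptions being those without PBS 4, 7 or 8. The size itself differed between the depth classes. These are different libraries, so depth cannot be told apart from other differences between them. The deeper libraries alone gave log2 3.97 (SE 0.755, edgeR adjusted p = 0.0457), with medians of 34 CPM in 6 hCG and 2.15 CPM in 4 PBS libraries. The shallower alone gave log2 1.36 (SE 0.599, edgeR adjusted p = 0.799), with medians of 2.52 CPM in 4 hCG and 1.53 CPM in 6 PBS libraries, and with the depth class as a term it was log2 2.77 (SE 0.629, edgeR adjusted p = 0.0468). Over all 33 alternatives the adjusted p of Il1b ran from 6.44e-07 to 0.799.

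Markers of neutrophils, which make interleukin 1 beta, moved with it. Of 14 listed, 6 were tested in cervix and 3 rose, none fell and 3 were not called: the calprotectin genes S100a9 (18-fold) and S100a8 (13.8-fold) and the growth factor receptor Csf3r (5.06-fold). The summed S100a8 and S100a9 level was 185, 160, 128, 76.8, 50 and 14.2 CPM in hCG cervix libraries 6, 1, 4, 2, 3 and 7, the same 6 libraries that were highest in Il1b. It was 5.37, 4.71, 1.12 and 0.452 CPM in hCG 10, R3, 5 and 9, against 0.858 to 12.5 CPM in PBS cervix. All of the 6 high libraries but hCG 7 were of the deeper class, as was hCG 5. The sum ran from 2.14 to 12.5 CPM in the deeper PBS libraries and from 0.858 to 2.9 CPM in the shallower. The neutrophil markers were not tested by depth class. The 12 matched markers other than Ltf, which glandular epithelium also expresses, summed to between 5.74 and 249 CPM in hCG cervix (median 57.6) and between 7.76 and 23.4 CPM in PBS cervix (median 14.5). With Ltf the 13 summed to between 5.99 and 4742 CPM with hCG and between 1396 and 4984 CPM with PBS. Elane, an enzyme of immature neutrophils, had no count in any PBS cervix library and in 6 of 10 hCG cervix libraries. In whole tissue more cells of a type and more RNA per cell cannot be told apart. The part of neutrophils in the Il1b result was not tested.

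Of 15 macrophage and monocyte markers tested 5 rose with hCG, among them Cd14 (2.38-fold), Plac8 (2.18-fold) and the scavenger receptor Cd163 (2.94-fold). The 16 listed summed to between 501 and 1574 CPM in hCG cervix (median 795) and between 278 and 834 CPM in PBS cervix (median 587). Squamous markers went down, with 4 of 14 called lower and sums of 1796 to 17198 CPM in hCG cervix (median 6808) and 10513 to 70046 CPM in PBS cervix (median 22847). Of 8 urothelial markers 5 rose. None of these lists, nor the neutrophil list, had a member called without hCG 1, 3 and 5 or without PBS 5 to 8, by edgeR. In these fits edgeR called 0 and 1 of all genes, so the absence of calls was not particular to these markers. The median log2 difference of the neutrophil markers was 1.78 with all libraries, 1.80 without hCG 1, 3 and 5 and 1.49 without PBS 5 to 8. In the same order it was 0.68, 0.33 and 0.49 for macrophage markers, -1.46, -1.36 and -1.41 for squamous markers and 3.12, 0.42 and 2.92 for urothelial markers. Without hCG 1, 3 and 5 an unadjusted p under 0.05 was reached by 4 of 6 neutrophil, 6 of 15 macrophage, 13 of 15 squamous and 1 of 8 urothelial markers, beside 19.2% of all genes. Without PBS 5 to 8 it was reached by 5 of 8, 8 of 15, 7 of 14 and 5 of 8, beside 27.3% of all genes. Their parts in the results on the family were not tested.

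**Figure D2:**
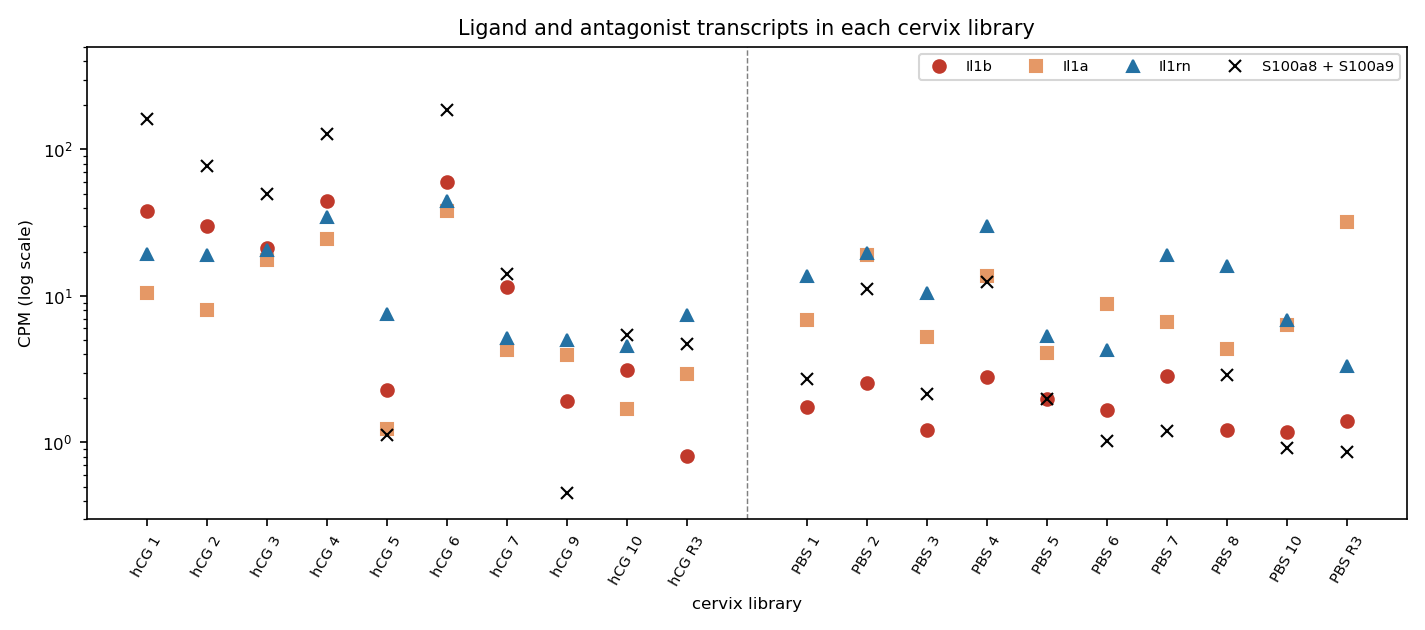
CPM (log scale) of Il1b, Il1a and Il1rn and the summed CPM of the neutrophil genes S100a8 and S100a9 in each hCG (left) and PBS (right) cervix library. In hCG 1, 2, 3, 4, 6 and 7 Il1b is between 11.5 and 60.1 CPM and the summed S100a8 and S100a9 between 14.2 and 185 CPM, while PBS libraries reach at most 2.82 and 12.5 CPM.

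Il1a, the sister ligand encoded beside Il1b, was not called. It ran from 1.24 through a median of 6.12 to 38 CPM in hCG cervix and from 4.09 through 6.75 to 32.1 CPM in PBS cervix (log2 0.10, SE 0.548, edgeR adjusted p = 0.921). Its highest hCG libraries were 6 and 4, at 38 and 24.6 CPM, which were also the highest in Il1b, and 4 hCG libraries lay below every PBS library. Its direction was not stable, being log2 -1.68 in the shallower libraries alone and -0.49 with the depth class as a term.

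Il1rn, the antagonist, ran from 4.52 through 13.3 to 44.4 CPM in hCG cervix and from 3.32 through 12 to 30.1 CPM in PBS cervix (log2 0.39, SE 0.46, edgeR adjusted p = 0.605). Again hCG 6 (44.4 CPM) and hCG 4 (34.3 CPM) were highest and were above every PBS library. Its value was log2 -0.71 in the shallower libraries alone. Across the 20 cervix libraries, which differ in treatment and depth, the Spearman correlation of Il1rn with Il1b was 0.577 and with Il1a 0.552.

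Il18, the other caspase 1 substrate, ran from 3.03 through 8.29 to 11.3 CPM in hCG cervix and from 2.04 through 4.45 to 10.2 CPM in PBS cervix. The hCG libraries lay mostly higher, 8 of 10 above the PBS median and 4 above every PBS library, but the 1.6-fold difference was not called (log2 0.67, SE 0.27, edgeR p = 0.0205, adjusted p = 0.103). It passed without PBS 3 alone (log2 0.85, SE 0.258, edgeR adjusted p = 0.0483), and over 33 alternatives the adjusted p ran from 0.0483 to 0.799. Its inhibitor Il18bp ran from 6.62 through 9.66 to 13.5 CPM with hCG and from 5.32 through 6.84 to 17 CPM with PBS (log2 0.30, SE 0.223, edgeR adjusted p = 0.384).

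Il33 stayed high in most libraries, from 37.9 through 216 to 376 CPM in hCG cervix and from 151 through 193 to 344 CPM in PBS cervix (log2 -0.02, SE 0.282, edgeR adjusted p = 0.97). The decoy Il1r2 ran from 3.51 through 157 to 228 CPM in hCG cervix and from 143 through 192 to 302 CPM in PBS cervix (log2 -0.61, SE 0.416, edgeR adjusted p = 0.339). The lowest values of both genes, 37.9 and 3.51 CPM, were those of hCG 5, the library high in smooth muscle and urothelial markers, and 4 hCG libraries were below every PBS library in Il1r2. Without hCG 5 and the mixed libraries 1 and 3, Il33 was at log2 0.30.

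The signalling chains differed little. Il1r1 ran from 65.9 through 97.4 to 127 CPM in hCG cervix and from 84.6 through 107 to 125 CPM in PBS cervix (log2 -0.14, 95% interval -0.36 to 0.075, edgeR adjusted p = 0.408). Il1rap ran from 23.5 through 39.5 to 63.4 CPM with hCG and from 34.4 through 39.7 to 56.4 CPM with PBS (log2 0.03, interval -0.29 to 0.36, adjusted p = 0.908, edgeR). Il1rl1, the interleukin 33 receptor, ran from 7.21 through 8.88 to 21 CPM with hCG and from 4.45 through 9.71 to 14.7 CPM with PBS (log2 0.14, interval -0.31 to 0.59, adjusted p = 0.711, edgeR). These intervals exclude a change of 2-fold in either direction for all 3 chains.

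In myometrium 0 of the 10 members was called by edgeR after hCG, with adjusted p from 0.482 to 0.988, and 0 had an unadjusted p under 0.05. DESeq2 called 0 members as well. Of all 14517 genes edgeR called 0.0138%, and DESeq2 called 405 genes. Il1b ran from 1.26 through 2 to 6.59 CPM in hCG myometrium and from 0.352 through 1.84 to 3.23 CPM in PBS myometrium (log2 0.41, SE 0.298, edgeR adjusted p = 0.545). The ranges overlapped, with 2 hCG libraries above every PBS library. Il1a, the leading ligand there, ran from 25.7 through 45.4 to 112 CPM with hCG and from 19.1 through 38 to 89.7 CPM with PBS (log2 0.19, SE 0.301, edgeR adjusted p = 0.829). The other 8 members differed by log2 -0.25 (Il18bp) to 0.25 (Il33). The 12 neutrophil markers without Ltf summed to between 9.51 and 117 CPM in hCG and between 9.17 and 142 CPM in PBS myometrium, and were highest in hCG 10 and 5 and in PBS 4 and 8, which were rich in yolk sac markers. S100a8 ran from 0.879 through 1.63 to 5.38 CPM in hCG myometrium and from 0.0717 through 0.831 to 2.6 CPM in PBS myometrium (2.51-fold, edgeR p = 0.00787, adjusted p = 0.15). S100a9 ran from 0.795 through 1.83 to 5.38 CPM with hCG and from 0.0717 through 0.977 to 2.04 CPM with PBS (2.26-fold, edgeR p = 0.01, adjusted p = 0.165). Neither was called, and their part in the Il1b values was not tested. Without the libraries over 5000 CPM of yolk sac markers Il1b was at log2 -0.20 and Il1a at -0.0073.

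Whether the tissues responded differently to hCG was tested over all 40 libraries. For Il1b the response in cervix exceeded that in myometrium by log2 3.10 (SE 0.698, edgeR adjusted p = 0.041), and the other 9 members were not called, while 0.352% of 15624 genes were, 0.128% with a higher and 0.224% with a lower response in cervix. Upper-quartile factors gave 25 genes higher and 15 lower, against 20 and 35 here. Cervix libraries split as above, while the hCG and PBS myometrium libraries stayed within 1.26 to 6.59 and 0.352 to 3.23 CPM. This call was less steady than its size. It held in 16 of 40 fits with a library left out (log2 2.78 to 3.37, edgeR adjusted p = 0.0167 to 0.0794). It was lost without cervix hCG 2, 3, 4, 6 or 7, cervix PBS 1, 4, 7, 8 or 10, myometrium hCG 1, 2, 3, 4, 5, 7 or 10, or myometrium PBS 1, 3, 4, 5, 6, 10 or R4. It was also lost in 3 of 9 other settings, among them the fit with no filter on low counts (log2 3.12, SE 0.701, edgeR adjusted p = 0.053). Another was the fit with the label number as a block (log2 2.57, edgeR adjusted p = 0.0833), in which edgeR called 0 of all genes. Without cervix hCG 1, 3 and 5 together the Il1b difference was log2 3.15 (SE 0.685, edgeR adjusted p = 0.0763). Without cervix PBS 5 to 8 it was 3.13 (SE 0.81, edgeR adjusted p = 0.0238), and Il18bp was then called as well (log2 0.82, SE 0.242, edgeR adjusted p = 0.0372), against 0.54 (SE 0.274, edgeR adjusted p = 0.264) with all libraries. Over the 49 alternatives the adjusted p ran from 0.00295 to 0.0833 for Il1b and from 0.0372 to 0.403 for Il18bp.

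**Figure D3:**
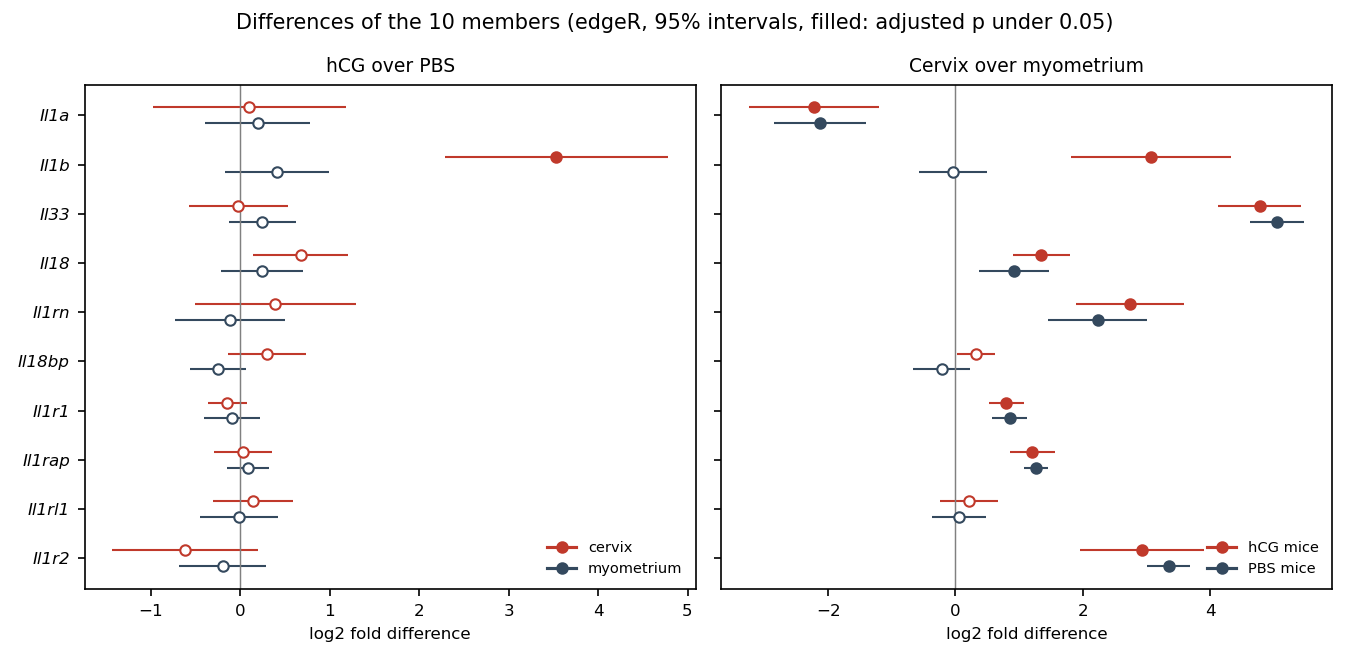
Log2 differences of the 10 genes with 95% intervals, hCG over PBS in each tissue (left) and cervix over myometrium in each treatment (right). Filled points passed at an adjusted p under 0.05: Il1b alone on the left (log2 3.53 in cervix), and 8 genes with hCG and 7 with PBS on the right, of which Il1a lies below 0.

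The tissues differed in most of the family. In PBS mice 6 members were higher and 1 was lower in cervix than in myometrium and 3 were not called, beside 28% of 14545 genes higher, 26.1% lower and 54% called in either direction. In hCG mice 7 were higher, 1 was lower and 2 were not called, beside 24.3% of 14974 genes higher, 19.4% lower and 43.7% called in either direction. The comparisons have different libraries but share the tissues, and their values are given side by side. The ranges of cervix and myometrium did not overlap for Il33 and Il1rn with hCG (beside 3.09% of genes that lay wholly higher and 7.63% that lay apart in either direction) and for Il33, Il1r2 and Il1rap with PBS (beside 7.01% and 14.4%).

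Il33, the alarmin, differed most. It ran from 37.9 through 216 to 376 CPM in cervix and from 4.68 through 7.7 to 12.5 CPM in myometrium of hCG mice, and from 151 through 193 to 344 CPM in cervix and from 3.1 through 6.55 to 10 CPM in myometrium of PBS mice. Every cervix library was above every myometrium library. The difference was 27.6-fold with hCG (log2 4.78, SE 0.332, edgeR adjusted p = 4.83e-10) and 33.2-fold with PBS (log2 5.05, SE 0.218, edgeR adjusted p = 3.91e-14). Without cervix hCG 1, 3 and 5 the difference with hCG was log2 5.10. Its receptor Il1rl1 was called in neither, at log2 0.21 (SE 0.233, edgeR adjusted p = 0.484) with hCG and 0.06 (SE 0.219, edgeR adjusted p = 0.849) with PBS. Il1rl1 ran from 5.63 through 8.31 to 19.6 CPM in hCG myometrium and from 4.84 through 9.09 to 16.9 CPM in PBS myometrium.

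Il1r2 and Il1rn, which restrain interleukin 1, were both higher in cervix. Il1r2 ran from 7.33 through 16.5 to 44.5 CPM in hCG myometrium and from 11.6 through 19.9 to 28.7 CPM in PBS myometrium, so that cervix was 7.59-fold higher with hCG (log2 2.92, SE 0.497) and 10.2-fold higher with PBS (log2 3.35, SE 0.171, edgeR adjusted p = 7.69e-05 and 5.75e-13). With hCG the ranges overlapped through cervix library 5 at 3.51 CPM and cervix library 3 at 31.3 CPM, below the highest myometrium library. Without cervix hCG 1, 3 and 5 Il1r2 was at log2 3.14. Il1rn ran from 1.03 through 2.6 to 4.41 CPM in hCG myometrium and from 0.592 through 2.32 to 5.33 CPM in PBS myometrium. Cervix was 6.69-fold higher with hCG (log2 2.74, SE 0.434) and 4.70-fold higher with PBS (log2 2.23, SE 0.396, edgeR adjusted p = 3.34e-05 and 5.95e-05).

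Il1a went the other way. Cervix had 4.68-fold less with hCG (log2 -2.23, SE 0.52, edgeR adjusted p = 0.00166) and 4.39-fold less with PBS (log2 -2.13, SE 0.373, edgeR adjusted p = 4.97e-05), and 9 of 10 cervix libraries lay below every myometrium library in each treatment. Il1b was 8.44-fold higher in cervix with hCG (log2 3.08, SE 0.641, edgeR adjusted p = 0.000608, and log2 3.10 without cervix hCG 1, 3 and 5), and with PBS its levels in the tissues overlapped throughout (log2 -0.04, 95% interval -0.57 to 0.49, edgeR adjusted p = 0.916). In order of median CPM, Il1b stood highest in hCG cervix, followed by hCG myometrium, PBS myometrium and PBS cervix, and no pair of the last 3 groups that was compared passed.

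The receptor chains and Il18 showed smaller differences. Il1rap ran from 14.4 through 16.3 to 27.2 CPM in hCG myometrium and from 14.2 through 17.8 to 20.8 CPM in PBS myometrium, and was 2.31-fold higher in cervix with hCG and 2.40-fold with PBS. Il1r1 ran from 40.7 through 51.7 to 88.5 CPM in hCG myometrium and from 39.8 through 55.5 to 111 CPM in PBS myometrium, and was 1.74-fold and 1.81-fold higher in cervix. Il18 ran from 1.68 through 3.31 to 4.2 CPM in hCG myometrium and from 1.22 through 2.38 to 5.97 CPM in PBS myometrium, and was 2.55-fold and 1.89-fold higher in cervix. These 6 differences had edgeR adjusted p from 7.1e-10 to 0.00825. Il18bp ran from 5.57 through 7.75 to 10.3 CPM in hCG myometrium and from 6.69 through 8.53 to 13.6 CPM in PBS myometrium and was not called (log2 0.32, SE 0.152, edgeR adjusted p = 0.0918 with hCG and log2 -0.22, SE 0.231, edgeR adjusted p = 0.443 with PBS). It passed with hCG without cervix library R3 (edgeR adjusted p = 0.0473, range 0.0473 to 0.403 over 30 alternatives), and with PBS without cervix libraries 5 to 8 (log2 -0.50, SE 0.19, edgeR adjusted p = 0.0336, range 0.0336 to 0.63 over 30 alternatives).

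Squamous epithelium separated these tissues. The squamous sums are given above, and 11 of 11 tested squamous markers were higher in cervix with hCG and 14 of 14 with PBS. Of 9 smooth muscle markers 6 were lower in cervix with hCG and 9 with PBS. Their sums overlapped with hCG (1219 to 29379 CPM in cervix and 13312 to 28191 CPM in myometrium), through cervix libraries 5 (29379 CPM) and R3 (14657 CPM), and did not with PBS (2068 to 13022 CPM in cervix and 14454 to 30990 CPM in myometrium). Macrophage markers went the same way, 11 of 15 lower in cervix with hCG and 13 of 15 with PBS, with sums of 501 to 1574 CPM in hCG cervix and 1217 to 2054 CPM in hCG myometrium, and of 278 to 834 CPM in PBS cervix and 1042 to 2091 CPM in PBS myometrium. Their part in the tissue differences of the family was not tested.

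Ratios within a library set ligand against inhibitor or receptor, each per kilobase of exon. They were not tested. Il1rn to Il1b had a median of 0.299 in hCG cervix (2 of 10 libraries above 1), 2.48 in PBS cervix (7 of 10), 0.352 in hCG myometrium (0 of 10) and 0.475 in PBS myometrium (2 of 10). Per kilobase, the antagonist transcript thus exceeded that of the ligand in most PBS cervix libraries and in few of the others. This rests on the exon lengths used, 5535 bases for Il1rn and 1907 for Il1b. In CPM alone the medians of Il1rn and Il1b were 13.3 and 16.4 in hCG cervix and 12 and 1.71 in PBS cervix. They were 2.6 and 2 in hCG myometrium and 2.32 and 1.84 in PBS myometrium. Il1b to Il1a was at 1.88 in hCG cervix (0.286 to 3.93), 0.227 in PBS cervix (0.045 to 0.504), 0.0492 in hCG myometrium (0.0207 to 0.142) and 0.0472 in PBS myometrium (0.0157 to 0.141). Il1b exceeded Il1a in 8 of 10 hCG cervix libraries and in no library of the other groups.

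Decoy to signalling receptor, Il1r2 to Il1r1, was at 5.23 in hCG cervix (0.159 in hCG 5 to 8.21), 6.36 in PBS cervix (4.42 to 9.59), 1 in hCG myometrium (0.522 to 2.85) and 1.25 in PBS myometrium (0.546 to 2.02). Per kilobase, the decoy transcript thus exceeded that of Il1r1 in every cervix library but hCG 5. In CPM alone Il1r2 was also below Il1r1 in hCG 3 (31.3 against 65.9 CPM) and hCG 7 (72.4 against 113 CPM). Il33 to Il1rl1 was at 57 in hCG cervix (11.5 to 118), 55.5 in PBS cervix (37.8 to 96.9), 2.19 in hCG myometrium (0.926 to 3.5) and 1.74 in PBS myometrium (0.741 to 3.34). Il18bp to Il18 was at 0.397, 0.46, 0.842 and 1.37, and Il1rap to Il1r1 at 0.23, 0.213, 0.18 and 0.175, in the same order of groups.

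**Figure D4:**
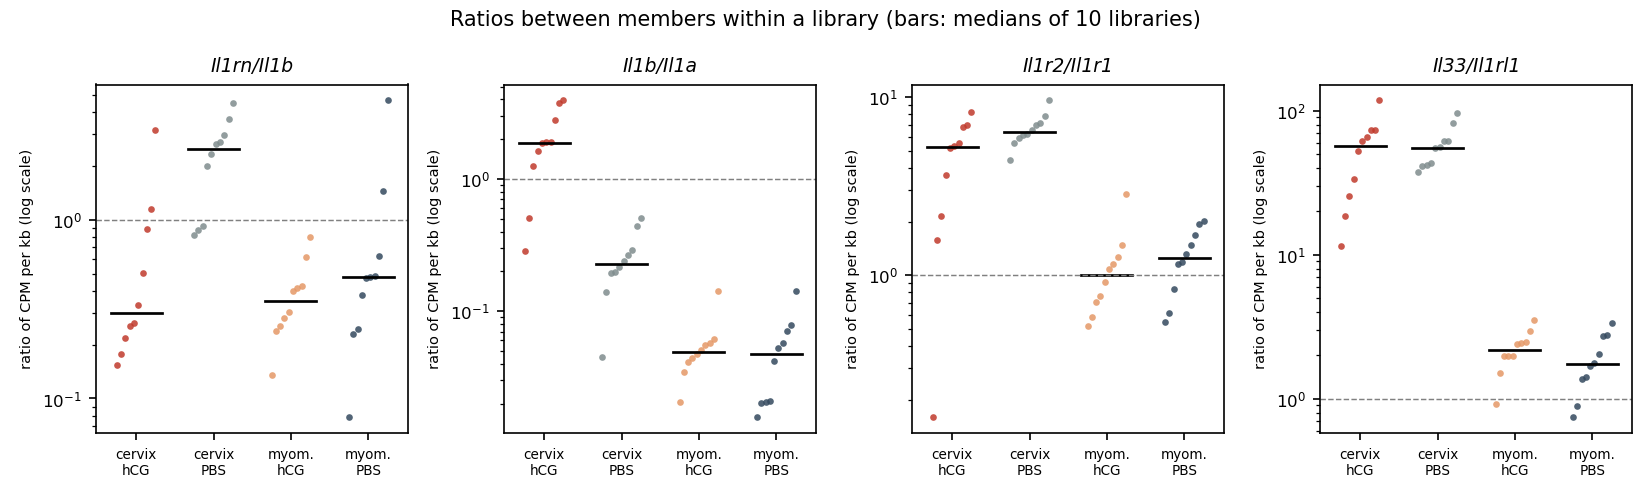
Ratios of CPM per kb within each library (points, log scale) by group, with the median as a bar and a dashed line at 1. Il1rn to Il1b has medians of 0.299 in hCG cervix and 2.48 in PBS cervix, and Il1r2 to Il1r1 and Il33 to Il1rl1 stand higher in cervix than in myometrium.

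Other genes of the pathway were counted from lists. Of 15 further family ligands and receptors 11 were matched, 8 were tested in cervix and 0 were called by edgeR with hCG, 1 of them having an unadjusted p under 0.05. The smallest p was that of Il1rl2, the interleukin 36 receptor (11.6 through 50.6 to 68 CPM with hCG and 39.2 through 78.2 to 117 CPM with PBS, log2 -0.74, SE 0.254, edgeR adjusted p = 0.0663). Of 14 tested inflammasome and processing genes 2 rose, 0 fell and 12 were not called. They were Casp4, an inflammatory caspase (1.82-fold, edgeR adjusted p = 0.0284), and Aim2, a sensor of cytosolic DNA (2.14-fold, edgeR adjusted p = 0.0341). Casp1 ran from 7.15 through 34.1 to 64.7 CPM with hCG and from 22.6 through 39.4 to 64.6 CPM with PBS and was not called.

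Of 21 genes of signal transduction 1 fell, Tollip, an adaptor that restrains the pathway (log2 -0.35, SE 0.0906, edgeR adjusted p = 0.0315), and 20 were not called. Of 23 genes known to be induced by interleukin 1, 14 were tested and 2 rose: the gelatinase Mmp9 (2.55-fold, edgeR adjusted p = 0.0408) and the adhesion molecule Vcam1 (2.31-fold, edgeR adjusted p = 0.0417). The median log2 differences were -0.37 for the further family genes, 0.33 for processing, -0.10 for signalling and 0.23 for induced genes, beside 0.007012 over all genes. Without hCG 1, 3 and 5, edgeR called 0 genes of these lists, as it called 0 of all genes, and 3 of 8, 6 of 14, 2 of 21 and 3 of 14 had an unadjusted p under 0.05, beside 19.2% of all genes. Without PBS 5 to 8 it also called 0 of them, and 1 of all genes, with 0 of 8, 6 of 14, 4 of 21 and 7 of 18 under 0.05, beside 27.3% of all genes. In myometrium edgeR called 0 genes of these lists, 1 of 7, 0 of 14, 2 of 21 and 3 of 17 having an unadjusted p under 0.05 beside 15.5% of all genes, and the smallest p was that of the protease Mmp3 (2.61-fold, edgeR adjusted p = 0.0941).

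Between tissues, where 24.3% of all genes were higher and 19.4% lower in cervix with hCG, and 28% higher and 26.1% lower with PBS, 5 of 8 further family genes were higher and 2 lower in cervix of hCG mice, and 4 of 8 were higher and 0 lower in PBS mice. Il18rap was 9.34-fold and Il18r1 4.43-fold higher in cervix with hCG, and 7.12-fold and 4.47-fold with PBS, so both interleukin 18 receptor chains were higher there, as Il18 was. Il1rl2 was 3.51-fold and Il1f9, which encodes interleukin 36 gamma, 4.63-fold higher with hCG, and 5.49-fold and 2.83-fold with PBS. Among processing genes the inflammasome adaptor Pycard was 4.72-fold higher in cervix with hCG and 7.78-fold with PBS, while 4 of 14 were higher and 1 was lower with hCG and 3 of 13 were higher and 7 were lower with PBS. With hCG these counts were 1 and 1 of 15 without the myometrium libraries over 5000 CPM of yolk sac markers, and 6 and 3 of 15 without cervix hCG 1, 3 and 5. Among signalling genes 5 of 21 were higher and 3 lower with hCG, and 4 of 21 higher and 2 lower with PBS, shares below those of all genes. Nfkbia, the inhibitor of NF-kB, was 1.74-fold and 2.19-fold higher in cervix, and the inhibitory kinase Irak3 differed by log2 -0.74 and -1.30.

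Of genes induced by interleukin 1, 8 of 17 were higher and 4 lower in cervix of hCG mice, and 5 of 16 were higher and 5 lower in PBS mice. The chemokine Cxcl5 was 75.2-fold higher with hCG and 28-fold with PBS, the hyaluronan synthase Has2 16.2-fold and 25.9-fold, and the prostaglandin E synthase Ptges 5.43-fold and 4.33-fold. Saa3, an acute phase gene, was at 9.75 through 30 to 264 CPM in PBS myometrium and had no count in 5 of 10 PBS cervix libraries, where it reached at most 0.643 CPM.

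The 20 libraries of a tissue differ in treatment, depth and tissue makeup, and a correlation over them can follow any of these differences. The genes most alike in pattern were taken by Spearman correlation of log2 CPM over these libraries. For Il1b in cervix they were Csf3r (0.887), Trim30b (0.797), the NF-kB inhibitor Tnfaip3 (0.774), Ccnl2 (0.759) and Clca3b (0.759). For Il1rn in cervix they were Pmaip1 (0.898), the cornified envelope gene Sprr2d (0.872), Mab21l4 (0.839), Sowahb (0.821) and Lpin2 (0.812). For Il33 they were Slfn9 (0.853), Kcnj16 (0.836), Ntan1 (0.802), Adam28 (0.8) and Ankrd6 (0.8) in cervix. In myometrium they were Il13ra1 (0.926), Cript (0.923), Kdsr (0.913), Casp1 (0.908) and Pafah1b2 (0.895). For Il18 in cervix they were Insig2 (0.773), Stom (0.767), Ocln (0.759), Gk (0.752) and Il15 (0.75). Among the members themselves the highest correlations in cervix were those of Il1rap with Il1r2 (0.656) and with Il1r1 (0.648) and of Il1b with Il18bp (0.626), and in myometrium that of Il1rap with Il1rl1 (0.606).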

How the data were processed

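The deposited file is a matrix of raw counts (23079 genes, 40 libraries), whole numbers made by the authors. Per the labels' protocols, total RNA was made into strand-specific libraries with a TruSeq kit, and per the submitters' processing notes the tool TopHat2 and the mm10 assembly (GRCm38) were used. The labels give no aligner version, counter, gene annotation or strand setting. Names and positions came from RefSeq GRCm38.p6, which matched 23008 identifiers. The other 71 held 0.197% of counts and were kept.

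Genes were filtered with edgeR's filterByExpr, scaled by TMM and tested with its quasi-likelihood F-test with robust dispersion. Benjamini-Hochberg adjustment ran over all genes tested, with a threshold of 0.05. Each comparison used the 20 libraries of its groups, and the difference of responses all 40 with an interaction. SE is the log2 difference divided by the square root of F, and 95% intervals are 1.96 SE. CPM were scaled over the 40 libraries, and 3 counts, the floor, equal 0.12 CPM at the highest depth and 0.551 CPM at the lowest (counting error only). No pair of libraries within a group agreed within sampling noise. Exon lengths are unions from GENCODE. The fits were tested on simulated data. Software was R 4.3.3, edgeR 4.0.16, limma 3.58.1 and DESeq2 1.42.0.

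The members and the 16 gene lists (211 genes, 6 of the entries not matched) were chosen with earlier results of these data known. Named besides the members are up to 4 called genes of a list with the smallest p, at most 2 where none was called, and the 5 genes most alike to Il1b, Il1rn, Il33 and Il18. Casp1, Ltf and Elane, and genes given again in a further comparison, were chosen after their values were seen. Alternatives were RLE and upper-quartile factors, other filters, DESeq2, no robust dispersion, all 40 libraries in 1 fit, the label number as a block, the depth class, and libraries left out. Leaving out myometrium libraries rich in yolk sac markers, and the cervix libraries named above in the tissue comparison and the difference of responses, was added after seeing the data. The result of 1 listed macrophage marker is not reported here.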

Additional observations from a re-analysis of the deposited data

Results flagged for a closer look

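Of 40 groups of 10 values (10 genes in 4 groups), 6 held a library far from the others, where the gap to the nearest library was above the critical share of Dixon's test at 95%. For normally distributed values chance gives this in about 1 of 20 groups. The CPM were not log transformed, so this share need not hold here. Il1b stood at 6.59 CPM in hCG myometrium library 3, and the next library was at 3.38 CPM. Il1r2 stood at 44.5 CPM in hCG myometrium library 1 (next 24.2 CPM). Il1rl1 stood at 19.6 CPM in hCG myometrium library 9 (next 12.5 CPM) and at 16.9 CPM in PBS myometrium library 2 (next 11.1 CPM). Il1r1 stood at 111 CPM in PBS myometrium library 4 (next 71.1 CPM), and Il1a at 32.1 CPM in PBS cervix library R3 (next 19 CPM).

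The response of Il1b to hCG differed between the tissues by a test of the difference itself (log2 3.1 higher in cervix than in myometrium, edgeR adjusted p = 0.041). It was not called in 24 of 40 fits with a library left out and in 3 of 9 other settings, with adjusted p up to 0.0833.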

How the results depend on the processing

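Of 510 values of members under other settings 477 kept their direction and their side of the threshold, 6 lost and 3 gained a call and 24 reversed. Of 1200 values with a library left out these numbers were 1128, 27, 2 and 43. All 24 and 43 reversed values belong to comparisons in which the member was not called, and the cause was not tested.

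In cervix 0 members were called without hCG 1, 3 and 5, without PBS 5 to 8 and in the shallower libraries, and 0 to 2 with a library left out. The log2 difference of Il1a was -0.30 with the replicate block, -0.28 without PBS 5 to 8, -1.68 in the shallower libraries and -0.49 with the depth term, and those of Il1rn were -0.71 and -0.13 in the last 2 of these. Il1rap was at -0.021 and Il1rl1 at -0.15 in the deeper libraries. Il33 was at 0.045 with upper-quartile factors, 0.30 without hCG 1, 3 and 5 and 0.14 in the shallower libraries, where Il18bp was at -0.11. With a library left out Il1a ran from -0.33 to 0.45, Il1rap from -0.048 to 0.11, Il1rl1 from -0.019 to 0.23 and Il33 from -0.14 to 0.11.

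In myometrium without yolk sac rich libraries Il1a was at -0.0073, Il1b at -0.20 and Il1rl1 at 0.18, and Il1rn was at 0.19 with the replicate block. With a library left out Il1a ran from -0.0065 to 0.33, Il1rn from -0.26 to 0.024, Il1r1 from -0.18 to 0.035 and Il1rl1 from -0.20 to 0.11. Between tissues Il1rl1 was at -0.099 with hCG and -0.037 with PBS without those libraries. In PBS mice with a library left out Il1b ran from -0.14 to 0.073 and Il1rl1 from -0.041 to 0.17.

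In the difference of responses 0 members were called without a filter, with the replicate block and without cervix hCG 1, 3 and 5, 2 without cervix PBS 5 to 8, and 0 to 1 with a library left out. Upper-quartile factors gave 0.017 for Il1r1 and 0.0086 for Il1rap. Without cervix hCG 1, 3 and 5 Il1a was at 0.0073, Il1r1 at 0.057, Il1rap at 0.089 and Il33 at 0.061. With a library left out Il1a ran from -0.54 to 0.25, Il1r1 from -0.20 to 0.032, Il1rap from -0.15 to 0.0061 and Il1rl1 from -0.018 to 0.34.

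Counts over all genes moved more. In cervix 1331 genes became 2279 with DESeq2, 3424 with all 40 libraries, 242 in deeper and 0 in shallower libraries alone, 508 with the depth term, 0 without hCG 1, 3 and 5, 1 without PBS 5 to 8 and 1 to 2065 with a library left out. In myometrium 2 genes became 405 with DESeq2, 4 with all 40 libraries, 0 without yolk sac rich libraries and 1 to 137 with a library left out. In the difference of responses 55 became 24 without a filter, 590 with DESeq2, 0 with the block, 2 and 1138 without the cervix libraries and 0 to 678 with a library left out. Upper-quartile factors called 972 genes higher and 475 lower in cervix, against 708 and 623.

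Correlations of same-numbered libraries ran from -0.25 to 0.57 in the comparisons of 2 groups, and at most 5 of 9 pairs were above 0.1. At most 3 of 9 libraries correlated best with the library of their own number. Between cervix and myometrium they ran from -0.25 to 0.57 with PBS (5 of 9 pairs above 0.1) and from -0.12 to 0.32 with hCG (3 of 9). Between hCG and PBS they ran from -0.07 to 0.30 in cervix (4 of 9) and from -0.18 to 0.19 in myometrium (3 of 8). Such correlations cannot show whether cervix and myometrium libraries of the same treatment and number came from the same mouse. With the replicate block Il1b was at log2 2.94 in cervix (SE 0.641, edgeR adjusted p = 0.0314) and 2.57 in the difference of responses (SE 0.699, edgeR adjusted p = 0.0833), and Il18bp was called between tissues in PBS mice (-0.44, SE 0.168, edgeR adjusted p = 0.0417). Members below 3 CPM rest on few counts in shallow libraries, down to 2.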

Other observations

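Markers of mast cells and group 2 lymphoid cells, which are among the cells that can carry Il1rl1, were summed. They came to between 82.4 and 253 CPM in hCG cervix and between 66.6 and 131 CPM in PBS cervix. Of 8 tested 1 was called higher with hCG, Gata3 (4.43-fold, edgeR adjusted p = 0.0337), which epithelium of the bladder also expresses. Without hCG 1, 3 and 5, and without PBS 5 to 8, edgeR called 0 of 8 and 0 of 9, beside 0 and 1 of all genes. Of these markers 5 and 2 had an unadjusted p under 0.05, beside 19.2% and 27.3% of all genes. In myometrium the listed markers summed to between 59.8 and 200 CPM with hCG and between 61.3 and 181 CPM with PBS. The highest sums were those of hCG library 9 and PBS library 2, the same libraries that were highest in Il1rl1. In cervix hCG library 7 was highest in both, while with PBS library R3 was highest in the sum and library 3 in Il1rl1. The part of these cells in the Il1rl1 values was not tested. T and NK cell markers summed to between 11.2 and 17.7 CPM in hCG cervix and between 7.56 and 16.2 CPM in PBS cervix, and edgeR called 0 of 4 tested, 0 having an unadjusted p under 0.05.

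In the other tissue lists hCG against PBS in cervix gave 1 of 10 endothelial markers (Tek, 1.7-fold), 1 of 8 adipocyte markers (Fabp4, 5.72-fold), 1 of 6 skeletal muscle markers (Actn3, 15.4-fold) and 2 of 6 yolk sac and fetal liver markers (Rbp4, 3.15-fold, and Trf, 3.83-fold) called higher by edgeR. Without hCG 1, 3 and 5 edgeR called 0 of these markers, as it called 0 of all genes, and 0 had an unadjusted p under 0.05. The median log2 difference was then 0.036 for endothelial, 0.29 for adipocyte, 0.17 for skeletal muscle and -0.014 for yolk sac markers, against 0.20, 2.29, 3.47 and 0.43 with all libraries. Without PBS 5 to 8 edgeR also called 0 of them, and 1 of all genes, with 2 of 10, 1 of 8, 1 of 8 and 2 of 7 under an unadjusted p of 0.05. With all libraries edgeR called 0 of 10 fibroblast and 0 of 9 smooth muscle markers, of which 2 and 0 had an unadjusted p under 0.05.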
